A study of Zea mays with 4 samples.

Results

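Of the 362 maize genes in which pseudouridine (Ψ) sites were listed in shoot mRNA, 24 held more than 1 site. These genes were chosen by the number of listed sites alone. Of them, 22 held 2 sites and 2 held 3 sites, which gave 50 of the 388 sites in the list. The remaining 338 genes held 1 site each. The genes lie on 9 chromosomes, 8 on the plus strand and 16 on the minus strand. Genes with known names among them encode alpha tubulins (TUA1 and TUA2), a polyubiquitin (MUB3), the sucrose-cleaving enzyme sucrose synthase (sus1), both kinds of subunit of chloroplast glyceraldehyde-3-phosphate dehydrogenase (gpa1 and gpb1), phosphoenolpyruvate carboxylase (pep1) and an enzyme of thiamine thiazole synthesis (thi1). The other genes are called by their RefSeq locus names, except LOC542277, which has the symbol nbp1.

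Ψ is an isomer of uridine that enzymes called pseudouridine synthases make within the RNA chain. Some synthases recognise short sequences or structures on their own, and others are guided by small RNAs. In bisulfite-induced deletion sequencing (BID-seq), Ψ that has reacted with bisulfite is passed over during reverse transcription, so the modified position shows up as a deletion, called a gap here. Several sites in 1 transcript allow sites to be compared that share a gene and its expression.

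The material was shoots of young soil-grown plants of the inbred line B73, with poly(A)-enriched RNA made into 4 libraries, 2 input libraries and 2 libraries treated with bisulfite. The deposited list gives 1 value per site, with reads summed over the replicates, so no replicate spread can be had and library totals are not known. The depth is the number of reads at the site, the gap ratio is the percentage of these reads with a gap, and the Ψ fraction is the stoichiometry that the authors derived from the gap ratio with a calibration curve. Whether reads of the input libraries are part of the depth is not given in the sources used here. Names of leaf marker genes matched 15 entries of the expression table. The names pdk1 and pep1 matched more than 1 entry each, and the 15 hold none for ssu2, ca1 or ca2. Of the 15, 14 stood above 1 TPM, a length-corrected share of all transcripts. Over all 44303 genes, 26548 stood above 1 TPM in both columns. The median over the 15 was 391 TPM, and lhcb3 was listed at 0.

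The 50 sites rested on 112888 reads, of which 5805 had a gap. Some of them shared a short sequence. Windows of 21 bases are printed here with the site at base 11 and with capitals for the site, written as T, and its neighbour on either side. The first set shows some of the 10 sites whose 6 bases from base 9 read GCTCTG, a sequence chosen after the windows were seen. Coordinates refer to assembly Zm-B73-REFERENCE-NAM-5.0, where each window is written along the strand of its gene.
TUA1 site 897, chromosome 1, position 277614313, plus strand: tcgatggtgCTCtgaacgtgg
LOC100283753 site 350, chromosome 7, position 151322769, plus strand: atcgtcgcgCTCtggacggta
LOC100283753 site 483, chromosome 7, position 151323659, plus strand: gcagggaggCTCtgatcggca
pep1 site 714, chromosome 9, position 70931520, minus strand: tcgatgaggCTCtgcagagag
LOC100273196 site 1474, chromosome 10, position 10047116, minus strand: tgcatggtgCTCtggtcgatg

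The number after each gene is the distance from the start of the listed transcript. GCTCTG surrounded 10 of the 50 sites (20%), in 9 genes, and 13.3% of the sites of genes with 1 site. Their gap ratios lay between 3.66% and 9.25% with a median of 4.29%. The frame was not shared, as the site fell in a GCT alanine codon at 5 sites, a TCT serine codon at 2 and a CTC leucine codon at 2, and the LOC100273196 site lies in the 3′ UTR. LOC100283753 was the sole gene in which both sites had this sequence.

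The second set has GCTCGG at the same place, and was also chosen after the windows were seen. It shows the related gpb1 and gpa1 genes beside a pair of genes with no known name.
gpb1 site 645, chromosome 1, position 6361305, plus strand: gactcgatgCTCggcaccttc
gpa1 site 356, chromosome 2, position 44076210, minus strand: gactccacgCTCggcatcttc
LOC103641822 site 619, chromosome 10, position 131409678, minus strand: cgccgctcgCTCggatacgcc
LOC100502035 site 375, chromosome 2, position 166901051, plus strand: cgcaagtcgCTCgggtacgcc

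GCTCGG surrounded 6 of the 50 sites (12%), each in a different gene, and 4.73% of the sites of genes with 1 site. At all 6 the site was the middle base of a CTC leucine codon. Their gap ratios lay between 3.44% and 6.19% and their Ψ fractions between 18.0% and 29.4%. The Ψ fraction was 4.75 to 5.25 times the gap ratio at these 6 sites, against 2.97 to 3.08 times at the 10 GCTCTG sites. Like gap ratios thus gave unlike fractions at these sites. Over the whole list the ranges were wider, 3.80 to 5.25 times at 22 GCTCGG sites and 1.98 to 3.08 times at 55 GCTCTG sites.

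The 3-base motif, the site with its neighbours, was CTC at 23 of the 50 sites (46%) and at 30.5% of the sites of genes with 1 site. GTG followed with 12 sites (24%, against 24.3%), TTG with 6 (12%, against 14.5%) and GTC with 5 (10%, against 7.10%), while TTC was found at 1 site (2%, against 16.3%). Both sites shared this motif in 10 of the 28 pairs that can be formed within a gene (35.7%, 95% Wilson interval 20.7% to 54.2%). Among the 75050 pairs of listed sites from different genes, 21% shared it, and among the 1197 such pairs in which both sites belong to the genes described here 28% did. The interval of the same-gene share includes both of these values. It takes the 28 pairs as independent, though the pairs of a 3-site gene share sites, so it is a rough guide only. In LOC100192861 every pair shared the motif. With 5 bases in place of 3, 1 same-gene pair of 28 matched (3.57%, 0.633% to 17.7%), the pair in LOC100283753. This share was below that of pairs from different genes, 5.01% over the whole list and 8.77% among the 50 sites. Its interval includes both values.

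Most of the sites lay in coding sequence. There were 48 in the coding sequence (96%) and 2 in a 3′ UTR, in LOC100127014 and LOC100273196, while 79.0% of the sites of genes with 1 site were coding, 15.7% lay in a 3′ UTR and 3.85% in a 5′ UTR. Of the 48 coding sites, 12 were the first, 24 the middle and 12 the last base of their codon. Leucine (14 sites), serine (12), valine (8) and alanine (5) codons held most of them, with CTC at 8 sites, GTG at 7 and TCT at 7. Both sites were in the same kind of region in 25 of 28 same-gene pairs (89.3%), and in 92.2% of pairs from different genes among the same 50 sites.

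Sites of 1 gene were between 11 and 2223 bases apart in the transcript, with a median of 242.5 bases and quartiles of 99.5 and 986.75 bases. Of the 28 pairs, 7 were under 100 bases apart, 13 under 200 and 7 at 1000 or more. No intron lay between the sites of 13 pairs, and introns of up to 2964 bases in all lay between those of the other 15. The plot of spacing shows that the 3-site genes were arranged unlike each other, with a close pair followed by a distant 3′ UTR site in LOC100273196 and a distant first site before a close pair in LOC100192861.

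**Figure D1:**
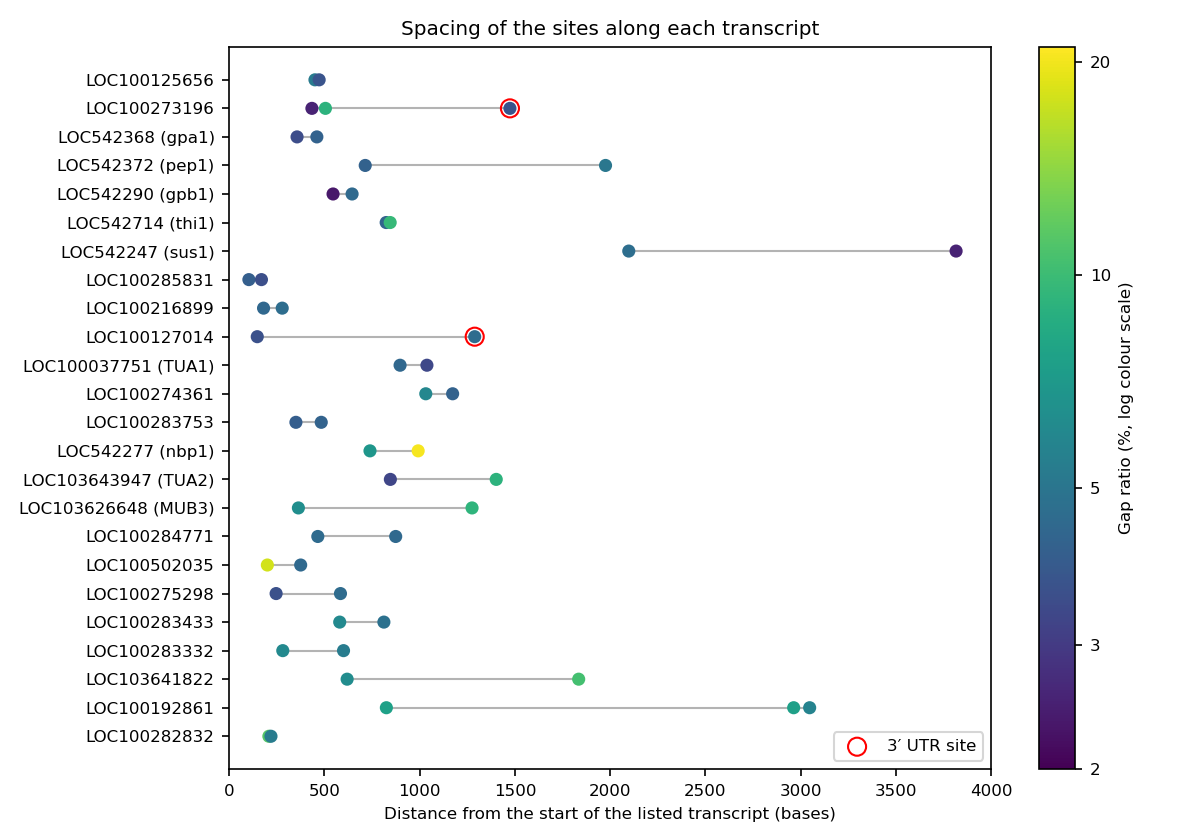
Positions of the 50 sites along the listed transcript (x axis, bases from its start) for each of the 24 genes (rows, ordered by the depth of the deepest site). Colour gives the gap ratio on a log scale and red rings mark the 2 sites in a 3′ UTR; distances within a gene run from 11 to 2223 bases.

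Sites of the same gene differed in gap ratio in 14 of 28 pairs, and how this compares with sites of different genes depended on the background. The gap ratios of the 28 same-gene pairs were compared by a two-sided Fisher's exact test on gapped and ungapped reads, with p-values adjusted by the Benjamini-Hochberg method over all 75078 pairs of listed sites, and a pair was called different at an adjusted p under 0.05. The 14 called pairs made up 50.0% (95% Wilson interval 32.6% to 67.4%) and lay in 12 of the 24 genes. Over pairs from different genes 48.6% were called, and over such pairs among the 50 sites 50.8%. The same-gene share is near both of these. The share in different genes was 38.2% where both depths lay inside the range of the 50 sites, and 46.3% where both sites had the same 3-base motif. Where depths were within 2-fold of each other, 12 of 26 same-gene pairs were called (46.2%, 28.8% to 64.5%), against 24.3% of pairs from different genes over the whole list and 46.5% of such pairs among the 50 sites. Since reads were summed over replicates, these tests cover counting error only and hold no biological spread. The intervals of the shares take the pairs as independent, though the pairs of a 3-site gene share sites, and pairs are not replicates. Under a Bonferroni adjustment over all pairs 7 of the 28 were called. The share of pairs from different genes called under that adjustment is not given here, so this count has no background. Reads were at most 100 bases long, so the 7 pairs of sites under 100 bases apart, 4 of them called, can share reads and their counts are not independent, and without them 10 of 21 pairs were called (47.6%).

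The median difference of the gap ratio within a gene was 1.69 percentage points, with a range of 0.0535 to 13.4. It was 1.80 points for pairs from different genes among the 50 sites, 1.53 for different genes within their depth range and 3.67 over all pairs from different genes. The median difference of the Ψ fraction was 8.11 points within a gene, and 7.76, 7.93 and 13 points in the same 3 backgrounds. Where depths were within 2-fold of each other, the median for the gap ratio was 1.41 points within a gene. It was 1.62 in different genes over the whole list and 1.36 in different genes among the 50 sites. For the fraction these medians were 6.42, 8.19 and 7.50 points. In points, the within-gene median was thus below that of all pairs and of whole-list pairs with depths within 2-fold. It was above or below that of the other backgrounds depending on the measure and the background. The scale mattered too. As an absolute log2 ratio with depths within 2-fold, the gap ratio median was 0.405 within a gene. It was 0.368 in different genes over the whole list and 0.435 among the 50 sites. For the fraction these log2 medians were 0.439, 0.538 and 0.653. No direction along the transcript stood out, as the site nearer the 3′ end had the higher gap ratio in 14 of 28 pairs, and in 8 of the 14 called pairs. Over the 22 genes with 2 sites, Spearman's rho between the upstream and the downstream site was 0.28 for the gap ratio, 0.29 for the fraction and 0.95 for the depth. These are descriptions over genes, in which both points of a pair come from the same summed libraries.

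**Figure D2:**
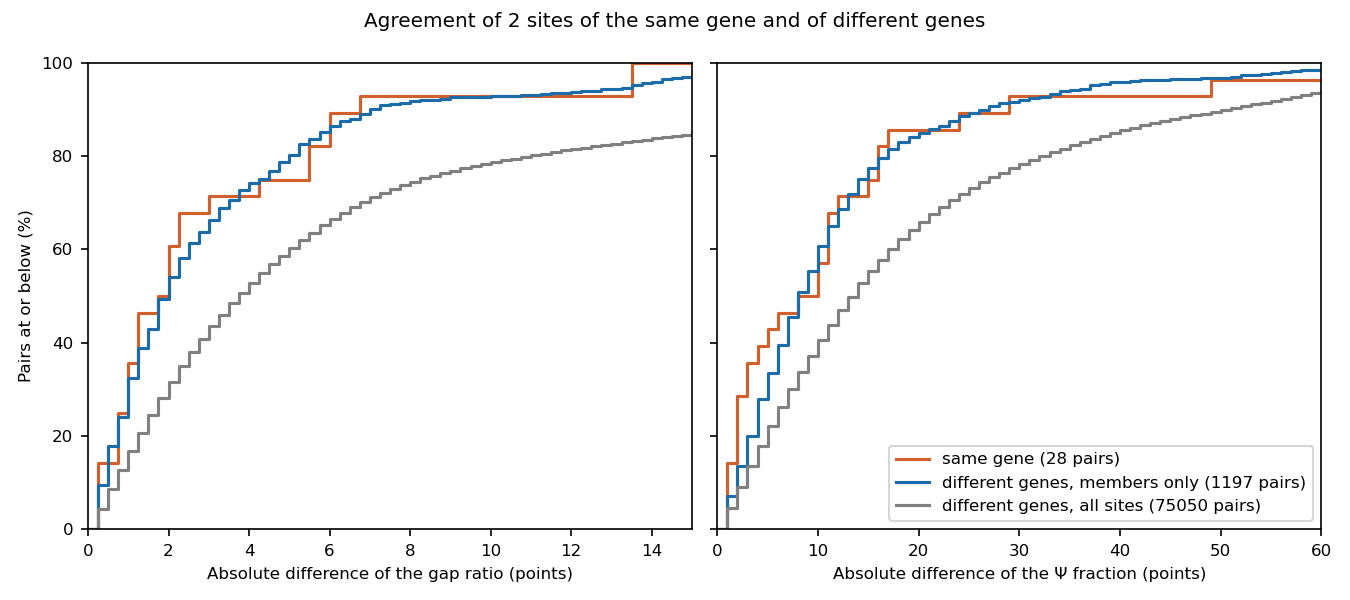
Share of pairs (y axis, percent) whose absolute difference is at or below the value on the x axis, for the gap ratio (left) and the Ψ fraction (right), both in percentage points. For the gap ratio the curve of the 28 same-gene pairs crosses that of the 1197 pairs from different genes among the same 50 sites several times, and for the fraction it lies higher at small differences (28.6% against 13.6% of pairs at 2 points or less). Both curves lie above that of all 75050 pairs from different genes over most of the range.

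The largest difference of the gap ratio within a gene was in nbp1 (LOC542277). Its site 739 had 111 gapped of 1616 reads, a gap ratio of 6.87% (95% Wilson interval 5.74% to 8.21%). Its site 992 had 460 of 2267 reads, or 20.3% (18.7% to 22%), the highest gap ratio among the 50 sites. The difference was 13.4 points (Newcombe interval 11.3 to 15.5, Fisher's exact test, adjusted p = 1.4e-31). The Ψ fractions were 21% and 49.5%.

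LOC100502035 held a difference of like size in the opposite order. Site 200, in a TCT serine codon, had 218 gapped of 1224 reads (17.8%, 15.8% to 20.1%), and site 375, of the GCTCGG set, had 58 of 1305 (4.44%, 3.45% to 5.70%). The downstream site was lower by 13.4 points (Fisher's exact test, adjusted p = 4.24e-26), with fractions of 45.9% and 22.5%. Both sites had CTC as their 3-base motif, so a shared motif came with unlike gap ratios here. Over all same-gene pairs, 4 of 10 with the same motif and 10 of 18 with different motifs were called.

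In the 3-site gene LOC100273196 all 3 pairs were called. Its sites 434, 505 and 1474 had gap ratios of 2.50% (97 of 3880 reads), 9.02% (108 of 1197 reads) and 3.66% (163 of 4459 reads). The middle site was 6.52 points above the first (Fisher's exact test, adjusted p = 2.29e-18), and the third lay 1.16 points above the first (Fisher's exact test, adjusted p = 0.00719). The middle site also had the lowest depth of the 3, by 3.73-fold relative to the third. This was the largest depth difference within any of the genes, and its part in the difference was not tested. The fractions were 25.9%, 74.1% and 11%, with the largest difference of the fraction within any of the genes (63.1 points), and the middle site was the sole one of the 50 with a fraction over 50%.

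In the other 3-site gene, LOC100192861, no pair was called. Gap ratios at sites 825, 2964 and 3048 were 7.61% (43 of 565 reads), 7.56% (43 of 569) and 5.73% (37 of 646). The first and second site differed by 0.0535 points, the smallest difference within any of the genes, and they lie 2139 bases apart. The interval of that difference, from -3.18 to 3.07 points, reaches past the same-gene median of 1.69 points. Fractions lay between 21.7% and 24.0%.

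The closest sites also differed. In LOC100282832, sites 208 and 219 are 11 bases apart, so their windows overlap.
LOC100282832 site 208, chromosome 8, position 57482650, minus strand: cggccgttcGTGggtcggcgg
LOC100282832 site 219, chromosome 8, position 57482639, minus strand: gggtcggcgGTGacgcgggcc
Site 208 had 58 gapped of 514 reads (11.3%, 8.83% to 14.3%) and site 219 had 25 of 468 (5.34%, 3.64% to 7.77%). The difference was 5.94 points (Newcombe interval of downstream minus upstream -9.41 to -2.49, Fisher's exact test, adjusted p = 0.00291). These counts can come from the same reads. The gene also had the lowest summed depth of the 24, with 982 reads.

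In thi1 (LOC542714) the sites 824 and 845 are 21 bases apart, in an isoleucine and a valine codon, and their counts can likewise come from the same reads. Gap ratios were 4.17% (137 of 3284 reads) and 9.64% (366 of 3796 reads), and the Ψ fractions 19.2% and 35.4%. The difference was 5.47 points (Newcombe interval 4.31 to 6.64, Fisher's exact test, adjusted p = 4.18e-18). Across the 18 pairs under 500 bases apart 8 were called, with a median difference of 1.41 points, and across the 10 more distant pairs 6 were called, with a median of 2.01 points.

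In TUA2 (LOC103643947), an alpha tubulin gene, the order of the sites was not the same in gap ratio and in fraction. Site 846 had a gap ratio of 3.26% (60 of 1839 reads) and site 1402 one of 9.07% (192 of 2116 reads), a difference of 5.81 points (Newcombe interval 4.34 to 7.30, Fisher's exact test, adjusted p = 5.49e-13). The Ψ fractions stood the other way, at 24.6% and 20.8%. The order of gap ratio and fraction differed in 8 of the 28 pairs, 3 of them called. Over the 50 sites the fraction was 2.01 to 10.3 times the gap ratio.

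The pairs with the smallest differences besides that of LOC100192861 were in LOC100284771, LOC100216899, LOC100283753 and LOC100285831. In LOC100284771 sites 465 and 874 had gap ratios of 4.51% and 4.43%, in a GCTCGG and a GCTCTG context, and their fractions were 22.8% and 13.6%. In LOC100216899 sites 180 and 278 had 4.38% and 4.58%, with fractions of 20.1% and 18.8%. The GCTCTG pair of LOC100283753 had 3.98% and 4.21%, with fractions of 12.1% and 12.8%. In LOC100285831 sites 103 and 169 had 4.05% and 3.51%. Over the 14 pairs that were not called, the distance from the middle to the end of the interval of the difference had a median of 1.38 points, and the widest bounds, both in LOC100192861, were -4.81 and 3.07 points.

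**Figure D3:**
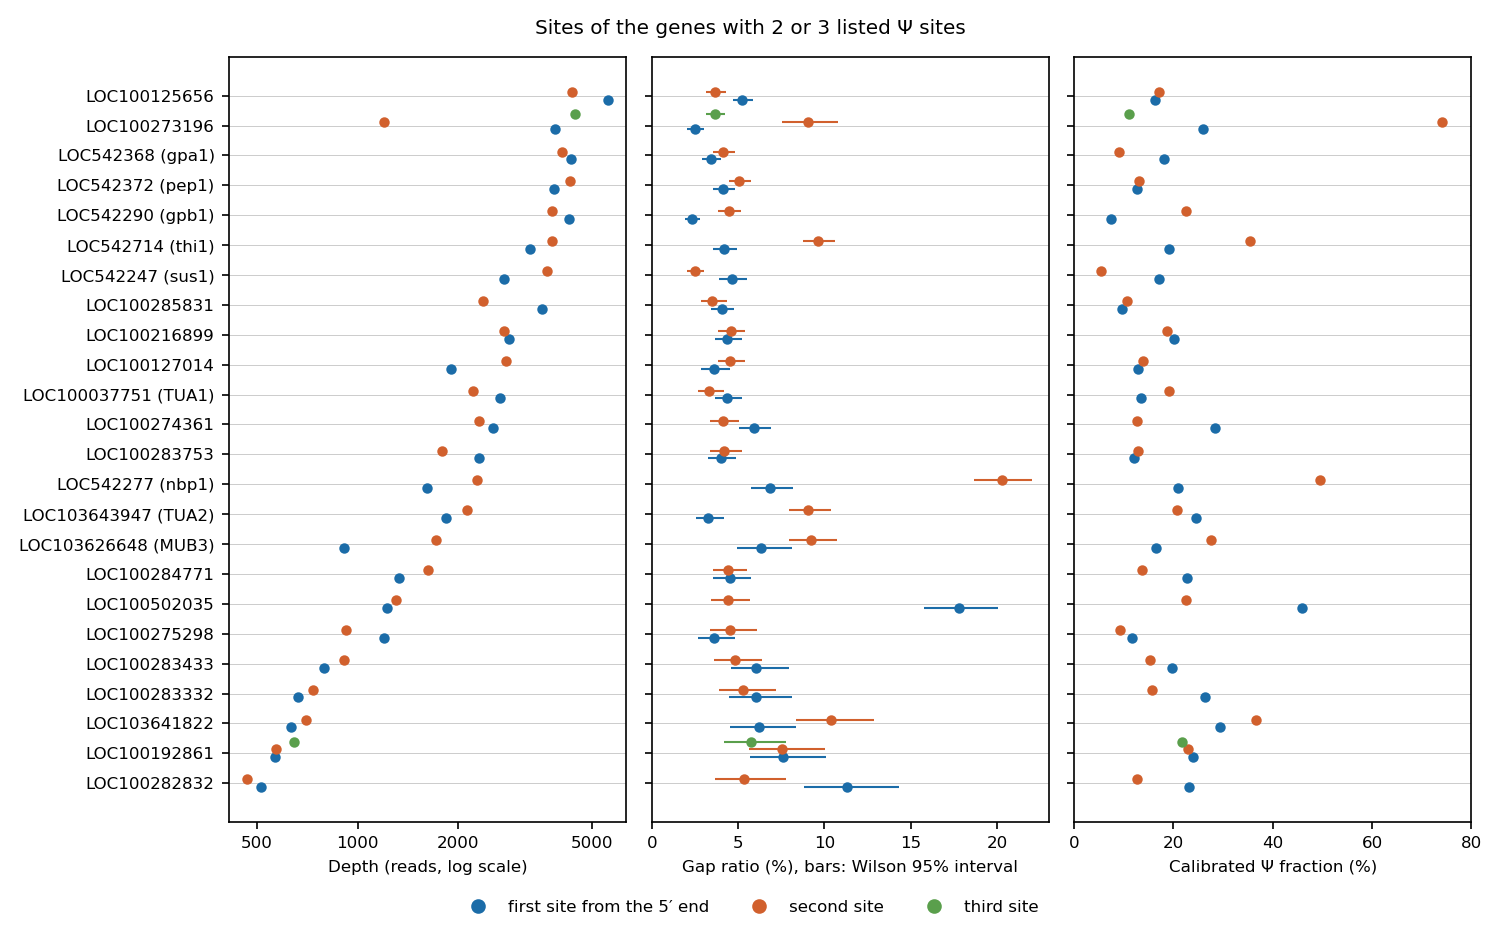
Depth (reads, log axis), gap ratio (percent, bars are 95% Wilson intervals) and calibrated Ψ fraction (percent) of each site, with genes in rows ordered by the depth of the deepest site and colours for the order of sites from the 5′ end. Depths within a gene lie close together except in LOC100273196 and MUB3, while gap ratios reach 20.3% in nbp1 and 17.8% in LOC100502035 beside sites under 7%.

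Several sites lie in sequence that is repeated in the same gene or in a related gene, and these were named after their values were seen. The windows were compared base by base, and each substitution is given as the base of the first window, its position counted from 1 at the 5′ end of the window, and the base of the second. MUB3 (LOC103626648) encodes repeats of ubiquitin, the protein of 76 residues that tags others for degradation. Its 2 sites fall in the same TCT serine codon, residue 20 of the repeat, in repeats 2 and 6. The related polyubiquitin gene MUB6 (LOC100282068) has 1 listed site, at residue 20 of repeat 5.
MUB3 site 363, chromosome 5, position 84402279, minus strand: ggtggagtcCTCtgacaccat
MUB3 site 1275, chromosome 5, position 84401367, minus strand: ggtggagagCTCtgacaccat

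The second MUB3 window differs from the first by A8T and G9C, read from site 1275 to site 363. Gap ratios were 6.35% (58 of 913 reads) and 9.25% (159 of 1719 reads), a difference of 2.90 points (Newcombe interval 0.711 to 4.93, Fisher's exact test, adjusted p = 0.0260). The MUB6 window differs from that of site 1275 by G4T alone. It had a gap ratio of 5.94%, which was below that of site 1275 (Fisher's exact test, adjusted p = 0.00202) and not distinguished from that of site 363 (Fisher's exact test, adjusted p = 0.802). How reads from repeats or related genes this alike were placed is not given in the sources used here, so the values of single copies are uncertain.

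Other related genes held sites in closely matching windows too. TUA1 site 897 and the single site of tua4 (LOC100381303) lie in residue 248, an alanine, with windows that differ by G20T. Their gap ratios were 4.37% and 4.34%, with an interval of the difference from -1.15 to 1.08 points. The GCTCGG sites of gpb1 and gpa1 lie in leucines 134 and 119, and their windows differ by G6C, T8C and C17T. Gap ratios were 4.46% (170 of 3812 reads) and 3.44% (149 of 4332 reads), a called difference of small size (Fisher's exact test, adjusted p = 0.0405). The other sites of these genes, gpb1 545 at 2.32% and gpa1 460 at 4.14%, had no such counterpart in the list.

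The thi1 site 845 has a counterpart in thi2 (LOC542715), where the window differs by T15G. The gap ratio was 9.64% in thi1 and 5.22% in thi2 (Fisher's exact test, adjusted p = 2.72e-07). LOC103641822 site 1835 and the single site of LOC100285420 have identical windows. Their gap ratios were 10.4% and 7.40%, which were not distinguished (Fisher's exact test, adjusted p = 0.170). In all, 9 pairs of windows with a site in these 24 genes differed at 4 bases or fewer, and 4 of the 9 were called different in gap ratio. Of all pairs of listed sites from different genes 48.6% were called, and 50.8% of such pairs with both sites in these 24 genes. The 9 pairs are not separate cases, as 1 of them is the same-gene pair of MUB3 and the MUB3 and MUB6 sites recur. Whether closely matching windows were called more or less often than other pairs was not tested.

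The genes with more than 1 site were read deeply. Depth at the 50 sites ran from 468 to 5613 reads with a median of 2164.5, and at the sites of genes with 1 site from 6 to 7284 with a median of 446.5. The list holds only sites that passed a filter of the authors, so these depths are a description with no test, and the part of depth in the number of listed sites was not tested. Of the 88 listed sites with under 200 reads none belonged to these genes, of the 143 with 200 to 800 reads 10 did (6.99%), of the 65 with 1600 to 3200 reads 18 did (27.7%), and of the 21 with 3200 or more 14 did (66.7%). Within a gene depth was nearly shared, with a median fold between sites of 1.15. At the threshold of the rule, the 44 sites of genes with 2 sites had a median depth of 2240 reads, a median gap ratio of 4.53% and a median fraction of 17.1%.

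Gap ratios in the same sites were lower than in genes with 1 site over the whole list, but not at high depth. They ran from 2.32% to 20.3% with a median of 4.54%, against a median of 7.25% for genes with 1 site. For the 160 sites of those genes within the depth range of the 50, the median was 5.22%. At 200 to 800 reads the medians were 6.12% in these genes and 7.40% in genes with 1 site. In the same order they were 4.68% and 5.02% at 800 to 1600 reads. At 1600 to 3200 reads they were 4.41% and 4.25%, and at 3200 or more 4.09% and 3.14%. The median Ψ fraction of the 50 sites was 18.4%, against 26% over the genes with 1 site and 17.9% within the depth range. Fractions under 20% were found at 29 sites (58%, against 33.4% for genes with 1 site). Spearman's rho of depth with gap ratio was -0.55 over the 50 sites and -0.83 over all 388, as a description of the listed sites.

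**Figure D4:**
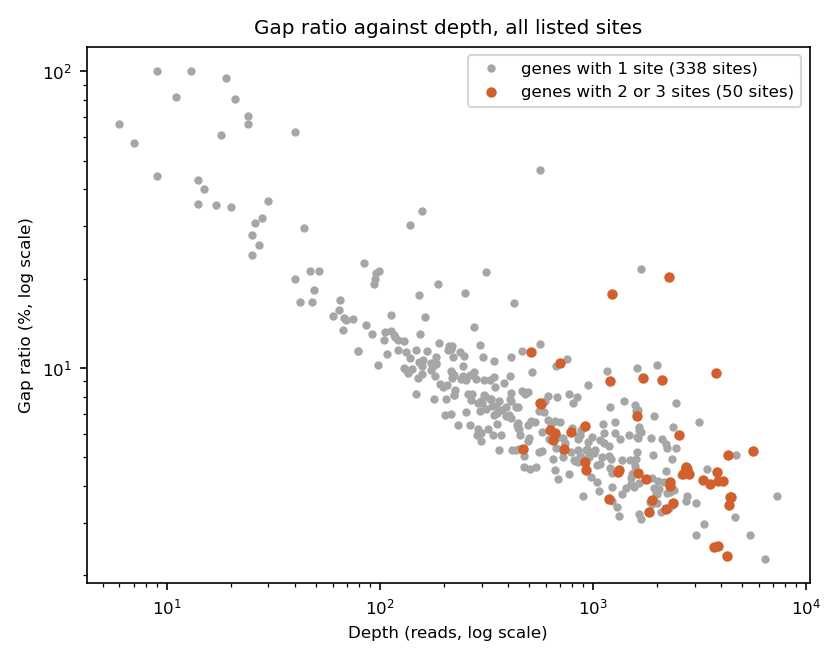
Gap ratio (percent, log axis) against depth (reads, log axis) for the 388 listed sites, with the 50 sites of genes with 2 or 3 sites in orange and the 338 of genes with 1 site in grey. The orange points begin at 468 reads, and the lower edge of all points falls with depth.

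Expression and depth had a similar order among the genes. TPM values were deposited in 2 columns, without saying which treatment their libraries had. An entry on the same strand was found for 23 of the 24 genes, and none was matched for MUB3. TUA1 and TUA2 lie inside the same entry, at 733 and 741 TPM in the 2 columns, so their expression cannot be split. Of the 338 genes with 1 site, 320 had a matched entry, and the rest are left out of all expression and length values. Over the 22 entries the mean of both columns ran from 118 to 2118 TPM with a median of 604. The median was 102 TPM for the 320 genes with 1 site and 3.06 TPM over all 44303 genes. The median gene length was 1888.5 bases for these genes, 1783.5 for genes with 1 site, 1339 over all genes and 1752.5 over the genes above 1 TPM in both columns.

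The 3 highest levels belonged to LOC100125656 (2084 and 2151 TPM in the 2 columns), pep1 (1467 and 1524 TPM) and LOC100273196 (1388 and 1440 TPM). The enzyme encoded by pep1 makes the first fixation of CO2 in C4 photosynthesis. Its sites 714 and 1976 had gap ratios of 4.16% (160 of 3850 reads) and 5.06% (218 of 4305 reads), a difference of 0.908 points that was not called (Fisher's exact test, adjusted p = 0.103). LOC100125656, with sites 450 and 472 at 5.26% (295 of 5613 reads) and 3.68% (161 of 4380 reads), was called (Fisher's exact test, adjusted p = 7.46e-04).

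The genes next above LOC100282832 in summed depth differed from each other. LOC103641822, with 1333 reads over its sites and 151 and 150 TPM, had gap ratios of 6.19% and 10.4% that differed (Fisher's exact test, adjusted p = 0.0183). LOC100283332, with 1395 reads and 117 and 118 TPM, the lowest level of the genes, had 6.05% and 5.31% that were not distinguished (Fisher's exact test, adjusted p = 0.661).

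Most genes at these levels of expression had no listed site. Of the 1644 genes at or above the lowest of these levels, 22 entries had 2 or more sites (1.34%), 141 had 1 site (8.58%) and 1481 had no listed site (90.1%). The 22 entries set this level, so all of them lie at or above it. Over all 44303 genes the numbers were 22, 320 and 43961, so listed sites were rarer there. Among the 100 genes of highest expression the numbers were 8, 13 and 79. Over the 21 genes with an entry of their own, Spearman's rho with TPM was 0.94 for the depth of the deepest site and -0.54 for the mean gap ratio, both given as descriptions.

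**Figure D5:**
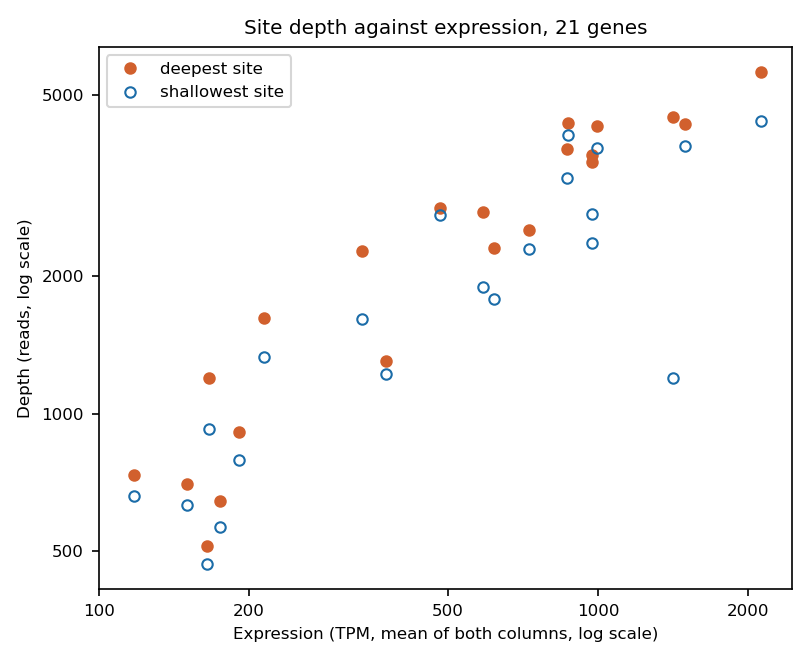
Depth of the deepest and the shallowest site (reads, log axis) against expression (mean TPM of both columns, log axis) for the 21 genes with an expression entry of their own. Depth rises with TPM along the plot, and the shallow site of LOC100273196 (1197 reads) lies far under the others at its level.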

How the data were processed

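BID-seq reads had been processed by the authors with a published pipeline (assembly Zm-B73-REFERENCE-NAM-5.0), and 388 sites that passed their P value-based filter were deposited. The depth is a read count that the authors summed over replicates. The gap ratio and the Ψ fraction were deposited as fractions and are given here in percent. A pass score of 1 or 2 was deposited without a definition. TPM values of 44303 genes were deposited in 2 columns, and how the authors made them is not given in the sources used here.

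Genes were the deposited gene names, and those with 2 or more sites were kept. The members and lists were chosen with earlier results of these data known. Gapped reads were taken as depth times gap ratio, which came within 0.00244 of a whole number at every site. Wilson and Newcombe intervals were at the 95% level. All 75078 pairs of sites were compared by Fisher's exact test (SciPy 1.17.1) with Benjamini-Hochberg adjustment, after the procedure was tested on simulated data. Amplified reads are not independent molecules, so intervals of gap ratios and of their differences cover counting error only. Intervals of shares of pairs take the pairs as independent. Motifs came from the listed genomic window, which has T at base 11 in all 388 sites, whereas the listed window of the spliced transcript has T there in 382. Windows differed at 2 of the 50 sites, outside the 3-base motif. Genes were matched to the expression table by chromosome, strand and position, and to RefSeq symbols for all 24.

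Values were given in full for 3-site genes, sites under 22 bases apart, the 5 largest and 5 smallest differences, and the 3 genes of lowest depth and of highest expression. Python 3.11.15, NumPy 2.4.6, pandas 2.3.3 and Matplotlib 3.10.9 were used. Alternatives covered the choice of pairs, the depth minimum of 50 reads, the adjustment, the motif length, the pseudocount of 1 or 0.1 and each TPM column. Classes of gene function were not analysed here.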

Additional observations from a re-analysis of the deposited data

How the results depend on the processing

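Of 54 alternative values of the main results, 38 kept their direction and size, 10 moved by over 1.5 times or beyond their interval, and 6 turned. Some of the 38 could not change. The lowest depth among the 50 sites was 468 reads, so a minimum of 50 reads left their counts, spacing and same-gene motif share as they were. Restricting the list to a pass score of 2 left 6 genes and 12 sites, and a Bonferroni adjustment left 7 called pairs, the other 7 of the 14 losing their call. The share of same-gene pairs called was 1.03 times that of different-gene pairs, and 0.863 times with the same 3-base motif, 0.984 times among the 50 sites and 1.90 times where depths were within 2-fold. The median gap ratio difference within genes was 0.459 times that between genes, and 0.869 times with depths within 2-fold, 0.937 times among the 50 sites and 1.10 times in their depth range. For the fraction it was 0.622 times, and 0.783 times with depths within 2-fold, 1.02 times in the depth range and 1.05 times among the 50 sites. Spacing along the chromosome had a median of 485 bases. A 5-base motif was shared by 3.57% of same-gene pairs and 5.01% of pairs from different genes. In the depth range the median depth was 1.82 times and the median fraction 1.03 times that of sites of genes with 1 site, against 4.85 and 0.710 times over all of them. The log2 difference in TPM from all genes was 7.22, and 5.46 among genes above 1 TPM. With each TPM column left out it was 7.20 to 7.23, and 2.53 to 2.58 relative to genes with 1 site. The comparisons among the 50 sites and in their depth range, the spliced windows (same-gene share 35.7%, as for the listed windows) and the next 2 values were chosen after seeing the data. Without pairs under 100 bases apart 10 of 21 pairs were called, and without MUB3, TUA1 and TUA2, 12 of 25 pairs were called (48%). The causes of these changes were not tested. No paired analysis was possible because the site values are sums over replicates and no result compares the input with the treated libraries.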

Other observations

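Of the 50 sites, 23 had a pass score of 2 (46%), against 28.7% of the sites of genes with 1 site.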
